A study of Mactra quadrangularis with 2 samples.

Results

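The digestive gland transcriptome of a clam, labelled both Mactra veneriformis and Mactra quadrangularis, held 124752 unigenes, which are transcript contigs assembled without a genome. Of these, 3 named after the nuclear receptors NR0B1, E75 and E78 are the members described here. They are CL14432.Contig1_All, described as nuclear receptor 0B1, Unigene36683_All, described as ecdysone-induced protein 75B (E75), and CL5608.Contig5_All, which resembles ecdysone-induced protein 78C (E78). The ending of the identifiers is left out below. They were chosen by identifier from the unigenes that the authors had called different between the libraries, so the difference between the libraries is part of how they were chosen and is described here without a test. The other contigs of the same assembly clusters, CL14432 and CL5608, were added, which gave 9 contigs in all. Further unigenes carry the same names, and uncalled ones carry no description. How many unigenes belong to these receptors is therefore not known.

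Clams of the control group were kept for 3 days with 0.05% DMSO by volume, the solvent, in the water. Clams of the BDE-47 group had the same solvent and a nominal 5 µg/L of BDE-47, a brominated diphenyl ether used as a flame retardant, for the same 3 days at 16 °C. Per the series text, each group had 3 replicates of 30 clams, and the glands of 30 clams were pooled for RNA extraction. The tables hold 1 library of poly(A) RNA per group, with 15.6 M fragments in the control library and 15.9 M in the BDE-47 library, so no difference below has a replicate check. All intervals are 95% exact conditional binomial (Clopper-Pearson) intervals that cover counting error only. They take each fragment as independent, which PCR copies are not. In pooled tissue, fewer cells of a type and less RNA per cell cannot be told apart.

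Nuclear receptors are transcription factors that carry a zinc finger DNA-binding domain and a ligand-binding domain, and many of them respond to small fat-soluble molecules such as steroids, retinoids, fatty acids or haem. NR0B1, known in mammals as DAX-1, is an unusual member that lacks the typical DNA-binding domain and represses other nuclear receptors in steroid-producing tissue. E75 and E78 were named in Drosophila as genes switched on by the moulting hormone ecdysone. E75 holds haem and responds to nitric oxide in Drosophila, and its vertebrate relatives are the Rev-erb receptors. Clams do not moult, and the insect names record the nearest database entry.

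The descriptions of the NR0B1-like cluster differed between databases. All 3 contigs of CL14432 had as first Nr match (the NCBI protein collection) nuclear receptor subfamily 0 group B member 1 of the oyster Crassostrea gigas, with alignment scores of 337.8 for Contig1 and 336.6 for Contig2 and Contig3. Their Swiss-Prot match was mouse COUP transcription factor 1, an orphan receptor of another subfamily, with lower scores of 89.4, 88.2 and 88.2, and their KEGG ortholog was K08547, again COUP transcription factor 1. The name NR0B1 thus rests on the oyster entry.

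The name E78 was not shared by the contigs of its own cluster. CL5608.Contig5 matched Drosophila E78C in Swiss-Prot with a score of 134, whereas CL5608.Contig1 and CL5608.Contig4 matched Drosophila E75B with a score of 122. The first Nr match of these 3 contigs was the same mussel protein, nuclear receptor subfamily 1 DEF of Mytilus galloprovincialis, with the same score of 526.9. Their KEGG ortholog, K08701 (nuclear receptor subfamily 1 group D member 3), was also that of Unigene36683, whose Nr match was an E75B of Crassostrea gigas with a score of 320.9 and whose Swiss-Prot E75B match scored 189. CL5608 is therefore called E75/E78-like below. Contig2 and Contig3 of CL5608 were not called by the authors and carry no description in the tables used.

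Fragments of the NR0B1-like CL14432.Contig1, a contig of 3672 bases, numbered 701 in the control library and 2328 in the BDE-47 library. Its authors' deposited FPKM (fragments per kilobase of contig, scaled to the library's counted total, a level per length) was 12.2 in the control library and 39.7 in the BDE-47 library. Per library total it was 3.25-fold higher in the BDE-47 library (interval 2.99 to 3.54). It was the highest of the 9 contigs in both libraries, with 92.0% of all unigenes at a lower FPKM in the control library and 98.6% in the BDE-47 library.

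The other contigs of CL14432 lay on either side. CL14432.Contig3, 105 bases longer than Contig1, had 121 and 324 fragments (2.05 and 5.38 FPKM) and was 2.62-fold higher in BDE-47 (2.12 to 3.26). CL14432.Contig2, 223 bases shorter than Contig1, had 395 and 194 fragments (7.33 and 3.53 FPKM) and was 2.08-fold lower (1.75 to 2.48). In the control Contig2 was thus above Contig3 in FPKM, and in BDE-47 it was below it.

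Contig2 held 32.5% of the cluster's fragments in the control (29.8% to 35.2%) and 6.82% in BDE-47 (5.92% to 7.81%). Contig1 held 57.6% (54.8% to 60.4%) and 81.8% (80.3% to 83.2%). Contig3 held 9.94% (8.32% to 11.8%) and 11.4% (10.2% to 12.6%), so that the larger share of Contig1 in BDE-47 stood against the smaller share of Contig2. Whether these contigs are isoforms, alleles or close copies cannot be read from the tables, and how the authors' counting placed fragments that match several contigs was not given in the sources used here.

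**Figure D1:**
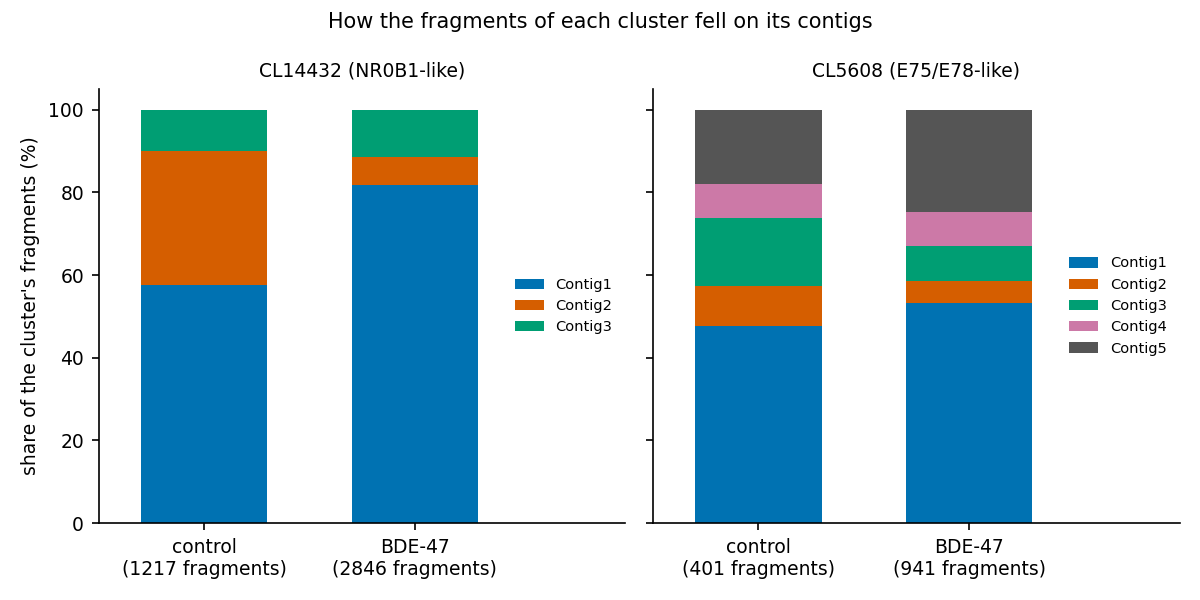
Share of each cluster's fragments, in percent, that fell on each of its contigs in the control and the BDE-47 library (1 library per group; the totals under the bars are fragments of the cluster). In CL14432, Contig2 took 32.5% in the control library and 6.82% in the BDE-47 library, while Contig1 took 57.6% and 81.8%.

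Summed over its 3 contigs, CL14432 had 1217 fragments in the control library and 2846 in the BDE-47 library, a ratio of 2.29 (2.14 to 2.45). Contig2 and Contig3 together had 516 and 518 fragments, a ratio of 0.983 (0.868 to 1.11), in which the higher Contig3 and the lower Contig2 nearly cancelled. Without Contig2 the ratio of the cluster was 3.16 (2.92 to 3.42).

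Fragments of the E75-like Unigene36683, a unigene of 1801 bases that its name places in no cluster, numbered 189 in the control library and 84 in the BDE-47 library. Its FPKM was 6.72 and 2.92. It was 2.30-fold lower in the BDE-47 library (1.77 to 3.01). With 273 fragments in all, its interval is wider than that of CL14432.Contig1, which had 3029.

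The E75/E78-like CL5608.Contig5, 4549 bases long, had 72 fragments in the control library and 234 in the BDE-47 library. Its FPKM was 1.01 and 3.23, and it was 3.18-fold higher in BDE-47 (2.43 to 4.20). In the control it was below Unigene36683 in FPKM, and in BDE-47 the values of these contigs were 3.23 and 2.92.

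All 5 contigs of CL5608 had more fragments in BDE-47, to different degrees. CL5608.Contig1, the most abundant of them, had 191 and 501 fragments (2.78 and 7.14 FPKM), a ratio of 2.57 (2.17 to 3.05). CL5608.Contig4 had 33 and 77 fragments, a ratio of 2.28 (1.50 to 3.55). CL5608.Contig2 had 39 and 49, and CL5608.Contig3 had 66 and 80, with ratios of 1.23 (0.791 to 1.92) and 1.19 (0.846 to 1.67) whose intervals include 1. Contig5 held 18.0% of the cluster's fragments in the control (14.3% to 22.1%) and 24.9% in BDE-47 (22.1% to 27.8%), intervals that adjoin, while Contig3 held 16.5% (13.0% to 20.5%) and 8.50% (6.80% to 10.5%).

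Summed over its 5 contigs, CL5608 had 401 and 941 fragments, a ratio of 2.30 (2.04 to 2.59). Without Contig5, which was selected on its difference, the ratio was 2.10 (1.84 to 2.41), and without Contig1 it was 2.05 (1.74 to 2.43). Since the database names do not separate CL5608 from Unigene36683 cleanly, their sum is also given: 590 fragments in the control library and 1025 in the BDE-47 library, a ratio of 1.70 (1.54 to 1.89).

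**Figure D2:**
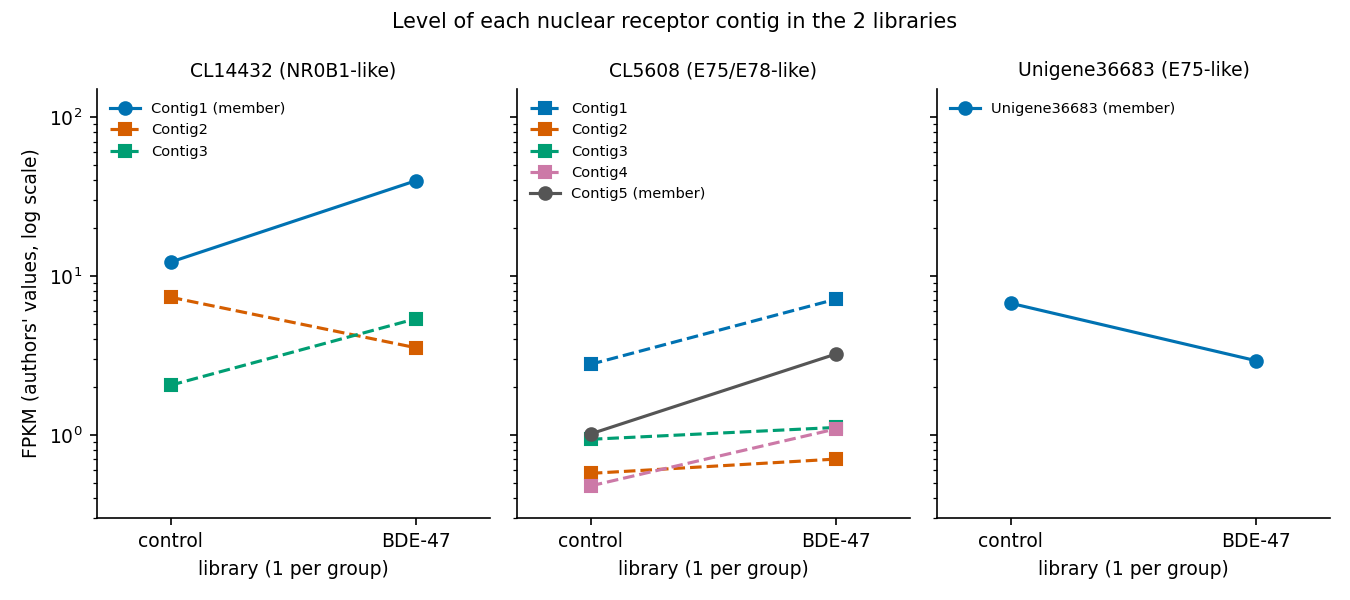
Deposited FPKM (log scale) of each of the 9 nuclear receptor contigs in the control and the BDE-47 library, 1 library per group, with solid lines for the selected unigenes and dashed lines for other contigs of their clusters. CL14432.Contig2 and Unigene36683 go down from control to BDE-47, and the other 7 go up.

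**Figure D3:**
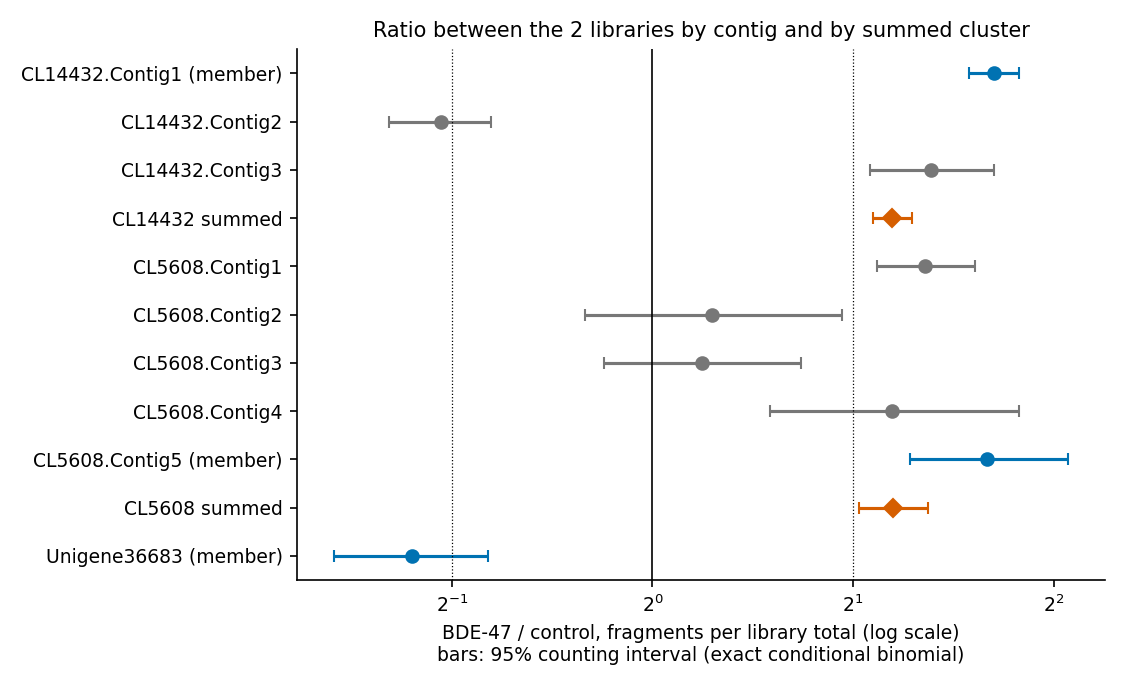
Ratio of BDE-47 over control in fragments per library total (log2-spaced axis) for each contig and for CL14432 and CL5608 summed, with 95% counting intervals as bars and dotted lines at a 2-fold difference. The summed clusters lie at 2.29 and 2.30, and the intervals of CL5608.Contig2 and CL5608.Contig3 include 1.

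Against all unigenes these ratios were not rare. A unigene counted as higher or lower here if its log2 ratio of FPKM + 0.1 was 1 or more, or -1 or less, with 20 or more fragments over both libraries and an interval that excluded 1. By this rule of size 5 of the 9 contigs were higher in BDE-47 and 2 were lower, against 12.4% higher and 16.2% lower among the 89164 unigenes that reach 20 fragments. With median-of-ratios scaling, by the typical ratio of all unigenes, 12683 unigenes were higher and 12455 lower, against 11092 and 14421 as counted. Because the members were taken from called unigenes, nothing is read from that count. CL14432.Contig2 and Unigene36683 lay near the limit. The log2 ratio of Contig2, -1.04 as counted, was -0.98 with TMM scaling (edgeR's trimmed mean of M-values), and that of Unigene36683 was -1.17, or -0.98 when 1 FPKM was added in place of 0.1, so that neither passed there. CL5608.Contig4, at 1.04, was at 0.50 with 1 FPKM added.

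Ratios as far from 0 as that of CL14432.Contig1, in the same direction, were found for 6.55% of the 89164 unigenes, as that of CL5608.Contig5 for 7.30% and as that of Unigene36683 for 14.1%. The median log2 ratio of these unigenes was -0.11. At the depth of CL14432.Contig1, between 1000 and 10000 fragments, 7.37% of 3474 unigenes were higher. Between 100 and 1000 fragments, where CL5608.Contig5 and Unigene36683 lie, 8.64% of 29029 were higher and 12.7% lower.

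**Figure D4:**
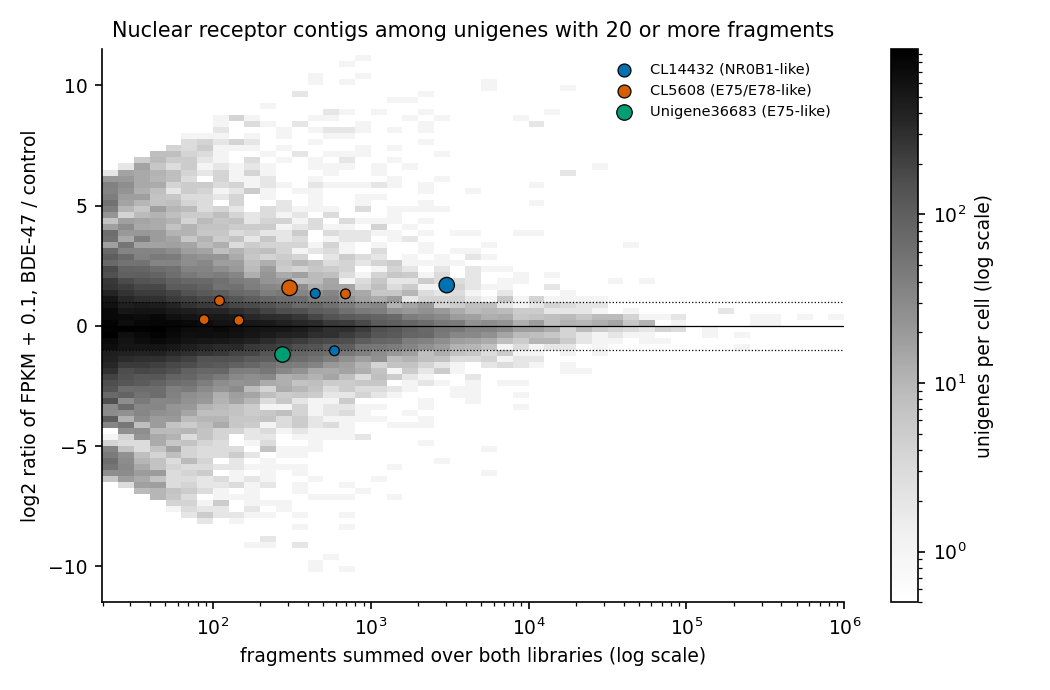
Log2 ratio of FPKM + 0.1 between the BDE-47 and the control library against the fragments summed over both (log scale), with grey cells for the number of unigenes (log scale) and coloured points for the 9 nuclear receptor contigs, the selected 3 drawn larger. Dotted lines mark a log2 ratio of -1 and 1. The contigs lie inside the cloud of unigenes at their depth, CL14432.Contig1 in its upper part with other unigenes above it.

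The opposite directions within CL14432 also had a frequent background. Of the 10708 clusters with at least 2 contigs of 20 or more fragments, 14.0% held both a higher and a lower contig, and of the 2171 with exactly 3 such contigs 17.3% did. With a floor of 100 fragments per contig, which all 3 contigs of CL14432 pass, the share was 7.71% of 3918 clusters. As summed clusters, CL14432 and CL5608 both counted as higher, but each holds a unigene chosen because it was called, so nothing is read from this. Of the 3879 clusters that hold a described unigene, which is likewise a called one, 23.6% were higher and 39.5% lower when summed. Among all 14990 clusters with at least 2 contigs and 20 fragments the shares were 6.20% and 7.67%.

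The authors' deposited table, made with a test not given in the sources used here, called all 7 of the contigs that passed the rule of size. The called unigenes all had FDRs up to 0.001 and log2 ratios of 1 or more, or -1 or less. Over all unigenes it gave 6.09% as up and 8.04% as down. Just inside those limits was CL14432.Contig2, with a log2 ratio of -1.06 in the authors' deposited table, and next CL5608.Contig4 with 1.19 and an FDR of 0.000242. The contigs not called, CL5608.Contig2 and CL5608.Contig3, were far from both limits, with log2 ratios of 0.30 and 0.25 and FDRs of 0.472 and 0.438 in the authors' deposited table.

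Other genes of the receptor family and of pathways around it were taken from lists of words matched to the descriptions, which only called unigenes carry. Of all 4337 described unigenes 33.9% were higher and 60.1% lower by the rule of size, with a median log2 ratio of -1.19. The nuclear receptor words matched 9 unigenes, 5 higher, 3 lower and 1 not past the rule, with a median log2 ratio of 1.04. Of these, 7 are described contigs of the clusters above and of Unigene36683, and summed by cluster the list came to 2 higher, 1 lower and 2 not past the rule. The other members were Unigene76095 and CL2440.Contig2. No described unigene matched the words for retinoid X receptor, ecdysone receptor, estrogen receptor or peroxisome proliferator-activated receptor in Nr or Swiss-Prot. By KEGG ortholog 1 did, Unigene76095, which was assigned to K07294, peroxisome proliferator-activated receptor alpha, with a score of 84.7.

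Unigene76095, 245 bases long and named nuclear hormone receptor E75 after an entry of the ant Harpegnathos saltator with a score of 89, had 13 fragments in the control library and 0 in the BDE-47 library. Set at a floor of 3 fragments in the BDE-47 library it came out 4.43-fold lower, and its interval bounded the fall at 3.11-fold or more. It was below the 20 fragments of the rule. CL2440.Contig2 matched Drosophila E74, an ecdysone-induced factor of the ETS family and no nuclear receptor, and its Nr name was the ETS factor Elf-3. It had 143 fragments in the control library and 64 in the BDE-47 library, 2.28-fold lower (1.69 to 3.11), but its sister CL2440.Contig1 had 70 and 100, and the summed cluster was not past the rule with a log2 ratio of -0.41. Without it the receptor list numbered 5 higher and 2 lower of 8.

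The coregulator words cover proteins that join nuclear receptors to the transcription machinery, such as Mediator, the complex between transcription factors and RNA polymerase II. All 9 matched unigenes were lower in BDE-47 and 0 were higher, against 60.1% lower among described unigenes. Their median log2 ratio was -1.50 against -1.19, and after summing by cluster 7 of 9 were lower, against 39.5% of clusters with a described unigene. Only 4 of the 9 had 100 or more fragments.

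Mediator names made up 8 of these 9, and 6 of the 8 also had a Mediator subunit as KEGG ortholog. These 6, all called and all lower, summed to 432 fragments in the control library and 145 in the BDE-47 library, so nothing more is read from the sum. One of them, CL10243.Contig1, had 61 and 27 fragments, but its sister CL10243.Contig2 had 46 and 64. That summed cluster was not past the rule, with a log2 ratio of -0.26. The Mediator names without such an ortholog are CL5939.Contig5 and Unigene1767. Unigene1767 was named after a Dictyostelium entry with a score of 50.8 and had no KEGG ortholog. CL13926.Contig1, described as Mediator subunit 24, which was first found in humans as a protein associated with the thyroid hormone receptor, had 120 fragments in the control library and 42 in the BDE-47 library and was 2.92-fold lower (2.04 to 4.25). A pair of shorter subunit 24 unigenes, chosen after their values were seen, had 68 and 17 fragments (Unigene3562) and 40 and 12 (Unigene11693). The 3 subunit 24 unigenes summed to 228 and 71 fragments, and whether they are pieces of 1 transcript was not tested.

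CL5939.Contig5 was the lowest of the list, with 682 fragments in the control library and 66 in the BDE-47 library, 10.6-fold lower (8.19 to 13.8), and a summed cluster log2 ratio of -2.19. Its name, a putative Mediator subunit 12 of Dictyostelium, had a score of 57, while its first Nr match, an unnamed oyster protein, scored 424.1. Its KEGG ortholog was K13163, male-specific lethal 1, with a score of 261, so that the Mediator match had the lowest score of these. CL7416.Contig2, matched to nuclear receptor coactivator 5, a protein that binds hormone receptors in mammals, had 71 and 32 fragments and was 2.27-fold lower (1.47 to 3.55). Its sister CL7416.Contig1 had 29 and 56, and the summed cluster had a log2 ratio of -0.21. Its Nr name is an RNA-binding protein, heterogeneous nuclear ribonucleoprotein C.

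**Figure D5:**
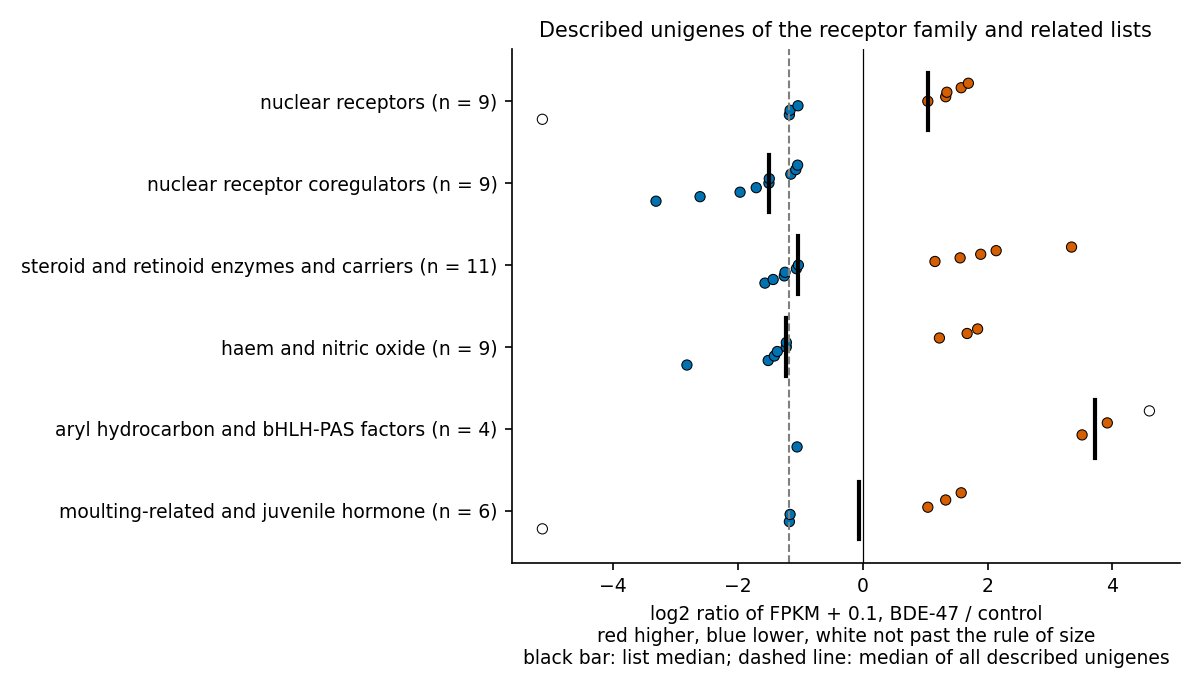
Log2 ratio of FPKM + 0.1 of each described unigene in 6 lists, with red points higher, blue lower and white not past the rule of size, a black bar for each list's median and a dashed line at the median of all described unigenes, -1.19. All 9 coregulator unigenes lie below 0, and the white points are unigenes with 0 fragments in 1 library, whose place depends on the added 0.1 FPKM.

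Steroid, sterol and retinoid enzymes and carriers, which make or move ligands of nuclear receptors, lay on both sides. Of 11 matched unigenes 5 were higher and 6 lower, with a median log2 ratio of -1.03, and after summing 4 clusters were higher, 2 lower and 5 not past the rule. Unigene9565, matched to estrogen sulfotransferase, which inactivates estrogens by sulfation in mammals, had 288 fragments in the control library and 873 in the BDE-47 library and was 2.97-fold higher (2.59 to 3.40). Its Nr name was sulfotransferase 1C4. Unigene57790, with the Nr name retinol dehydrogenase 12 at a score of 128.3, had 50 and 115 fragments and was 2.25-fold higher (1.60 to 3.20). CL7921.Contig3, with the same Nr name at a score of 314.3, went the other way. It had 303 and 147 fragments and was 2.1-fold lower (1.72 to 2.58), in a cluster with a summed log2 ratio of -0.72. The Swiss-Prot match of both was copine family protein 2 of Caenorhabditis elegans.

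Among the lower ones, Unigene1129, matched to retinol-binding protein 4, the carrier of retinol in mammalian blood, with a score of 62.4, had 78 fragments in the control library and 26 in the BDE-47 library and was 3.06-fold lower (1.94 to 4.98). CL18190.Contig3, matched to cholesterol desaturase daf-36, which acts on the way to steroid hormones in Caenorhabditis elegans, had 156 and 57 and was 2.79-fold lower (2.05 to 3.86). The sister contigs CL18190.Contig1 and CL18190.Contig2 had 140 and 138, and 52 and 95, so that the summed cluster was at a log2 ratio of -0.29. CL17649.Contig2, matched to oxysterol-binding protein-related protein 11, of a family of lipid carriers, had 87 and 36 fragments and was 2.47-fold lower (1.66 to 3.75). Its sister CL17649.Contig1 had 129 and 132, and the summed cluster had a log2 ratio of -0.39.

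The haem and nitric oxide words were included because both are ligands of E75 in Drosophila. Of 9 unigenes 3 were higher and 6 lower, with a median log2 ratio of -1.22, and 2 clusters were higher and 4 lower after summing. The contigs of 5-aminolevulinate synthase, which catalyses the first step of haem synthesis in animals, went in opposite directions within 1 cluster, as those of CL14432 did. CL14521.Contig3 had 140 fragments in the control library and 465 in the BDE-47 library, 3.25-fold higher (2.69 to 3.96). CL14521.Contig1 had 366 and 142, 2.63-fold lower (2.16 to 3.22), and the summed cluster had a log2 ratio of 0.32.

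Heme-binding protein 2 was higher in Unigene44712, with 113 and 273 fragments, a ratio of 2.37 (1.89 to 2.97). It was lower in CL3373.Contig4, with 624 and 237 fragments, 2.69-fold (2.31 to 3.14), in a cluster with a summed log2 ratio of -0.78. Unigene8189, matched to a guanylate cyclase, of the enzyme family that makes cyclic GMP and whose soluble members respond to nitric oxide, had 276 and 96 fragments and was 2.94-fold lower (2.32 to 3.74). Its Nr name was soluble guanylate cyclase 88E, but its Swiss-Prot match was guanylate cyclase 32E. Its KEGG ortholog was K12323, atrial natriuretic peptide receptor A, so whether it is a soluble member is not settled by the names.

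No described unigene matched the aryl hydrocarbon receptor, the sensor of dioxin-like compounds. The list that held it matched 4 unigenes by the name of the clock protein Period, 2 higher, 1 lower and 1 not past the rule. Of these, Unigene60221 (higher, 1 and 37 fragments) and Unigene60735 (not past the rule, 0 and 16) had collagen alpha chains as Nr names. Their Nr scores were 72.8 and 58.2 and their Period scores 57.8 and 57, so the list is not read as clock genes. CL497.Contig2, whose Nr name is also Period, had 113 fragments in the control library and 52 in the BDE-47 library, 2.22-fold lower (1.58 to 3.14), while CL497.Contig1 had 73 and 142 and the summed cluster had a log2 ratio of 0.03. Unigene45221, with 11 and 137 fragments, had a Period match with a score of 76.3 and an unnamed Nr match. The moulting and juvenile hormone words added no unigene to those above, with 3 higher, 2 lower and 1 not past the rule of 6.

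The described unigenes with levels most like those of the receptors were named by distance on the log2(FPKM + 0.1) scale over the control and BDE-47 values. Only the 4337 described unigenes, all called by the authors, were searched, leaving out the receptor's own cluster. Nearest to CL14432.Contig1 were an unnamed oyster protein (Unigene7131, distance 0.108), a GP2-like secretory granule membrane protein (Unigene43016, 0.112) and Tudor domain-containing protein 7 (CL594.Contig2, 0.148). Nearest to Unigene36683 were CL6371.Contig2, an unnamed protein (0.00812), CL8332.Contig5, matched to suppressor of tumorigenicity 7 (0.0150), and CL1279.Contig2, elongation factor 2 kinase (0.0179). Nearest to CL5608.Contig5 were a protein kinase shkD match (Unigene44223, 0.0593), an unnamed protein (CL14052.Contig2, 0.0628) and beta-mannosidase (CL8653.Contig2, 0.0689). With 2 values per unigene, such likeness is a description of 2 libraries.

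Markers of tissues were counted in the same way, beside the 33.9% higher and 60.1% lower of all described unigenes. Of 20 described mantle and shell unigenes 16 were higher and 3 lower in BDE-47, and 4 were at 0 in the control. Their fragments summed to 2195 in the control library and 50539 in the BDE-47 library, and those of their whole clusters to 5000 and 56386. Digestive enzyme words, which include cathepsin and carboxypeptidase, matched 30 unigenes, 17 higher and 9 lower, with 7 and 1 at 0. They were meant as markers of the labelled tissue, and whether they are particular to it was not tested. Cathepsin L (CL2966.Contig2) alone went from 17963 to 9135 fragments (391 and 195 FPKM), while the other 29 summed to 2126 and 3209. Summed over whole clusters the digestive list had 49145 and 48830 fragments.

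Muscle markers were higher in 7 and lower in 13 of 21, with 1 and 2 at 0, close to the shares of all described unigenes. Their fragments summed to 4989 and 3229, but those of their whole clusters to 7927 and 16960, the other way. The words also took in non-muscle myosin heavy chain, so these sums are not of muscle alone. It was the match of CL6896.Contig1 (1792 and 847 fragments) and Unigene4094 (1077 and 240), the most abundant of the list. Next came Unigene4212, matched to titin, with 168 and 439. Ciliated cell markers were higher in 3 and lower in 14 of 18, with 1 and 0 at 0, and had 2984 and 1859 fragments, or 10646 and 8955 by cluster. Gonad markers were higher in 17 and lower in 18 of 39, with 11 and 0 at 0, and had 14466 and 16311 fragments, or 18217 and 20660 by cluster. Unigene11231, an alpha tubulin named after a testis entry of a trout, alone had 5044 and 10968 of these fragments. The next most abundant, matched to vitelline membrane outer layer protein 1, were lower, with 2725 and 794 (Unigene27389) and 1945 and 888 (Unigene24530). Blood cell markers were higher in 32 and lower in 39 of 77, with 2 and 2 at 0, and had 17837 and 19347 fragments, or 37547 and 38027 by cluster. The only algal match was CL18190.Contig3, also listed above as daf-36. The part of such differences in the receptor values was not tested.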

How the data were processed

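Poly(A) RNA of pooled digestive glands was read by Illumina HiSeq sequencing, per the labels' protocols. The submitters' processing notes name CASAVA 1.5, whereas assembly, alignment and counting tools were not given in the sources used here. Per the file headers, the deposited table holds the authors' raw counts of fragments on 124752 unigenes, with FPKM values that were recomputed from the counts and library totals to within 0.0000500. The authors' deposited log2 ratio is BDE-47 over control FPKM, with 0 set to 0.001. The authors also deposited p-values and FDRs from a test that is not given. A second deposited table holds 17625 called unigenes with the alignment score of each database match, of which 4337 have a description.

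With 1 library per group no test between conditions was possible. Ratios of fragments per library total, Clopper-Pearson intervals and the rule of size were computed with Python 3.11.15 and scipy 1.17.1, and TMM factors with edgeR 4.0.16. The fragments of all contigs of a cluster were summed. Words were matched to the first Nr and the Swiss-Prot descriptions without species names. The members and lists were chosen with earlier results of these data known. Besides the members and their clusters, the text names up to 3 highest and 3 lowest unigenes of each list that passed the rule with at least 100 fragments. It also names all unigenes of the receptor list and the 3 described unigenes nearest in level. Other unigenes named, apart from sister contigs, were chosen after their values were seen. The rule and intervals were run on simulated counts that hold counting error only. Such counts check the code and cannot show the error between pools of animals. Alternatives were other scalings, pseudocounts, fragment floors, cluster sums and 1 unigene per description. No sequence of the unigenes was used here.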

Additional observations from a re-analysis of the deposited data

How the results depend on the processing

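Of 138 alternatives to the values reported, 106 kept direction and stayed within the counting interval or within 1.5 times the count. CL14432.Contig1 moved from a log2 ratio of 1.69 to 1.20 and CL5608.Contig5 from 1.58 to 1.20 when their clusters were summed, and CL5608.Contig5 to 1.07 with 1 FPKM added. The summed CL14432, at 1.20, went to 1.31 with median-of-ratios scaling. In alternatives chosen after seeing the data it went to 1.66 without Contig2 and to -0.025 without Contig1, which holds most of its fragments. Over all unigenes 11092 were higher and 14421 lower, but 12683 and 12455 with median-of-ratios scaling, which ends the excess of lower calls. With a floor of 100 fragments 2789 were higher and 3988 lower, since fewer unigenes could pass, and with no floor 17626 were higher. The authors' call gave 7597 and 10028.

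Summed by cluster, the receptor list went from 5 higher and 3 lower to 2 and 1, and the steroid list from 6 lower to 2. The list matched by Period went from 1 lower to 0, and the moulting list from 3 higher and 2 lower to 1 and 1. With 1 unigene per description the receptor list had 2 higher and the moulting list 1, since contigs of a cluster share names. With TMM scaling the list matched by Period had 0 lower. TMM moved log2 ratios by 0.06, and median-of-ratios scaling removes a median log2 ratio of -0.12. No paired analysis was possible because each group has 1 library. Contigs with few fragments have wide intervals, and differences between pools of animals cannot be seen at all with 1 library per group.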
